A study of Mus musculus with 22 samples.

Results

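The primitive endoderm genes described here are Gata4, Gata6, Sox17, Sox7, Foxa2, Dab2, Pdgfra, Amn, Cubn and Afp. They are 10 genes chosen by name as markers of this lineage, with no threshold on measured values. Of the 10, 7 were matched by symbol among the 18487 genes of the expression table, and all 7 were among the 17275 genes tested. Sox7, Foxa2 and Afp had no matching symbol and are not analysed here. RNA was sequenced from E14, a mouse embryonic stem cell line, in 22 libraries that form 11 groups of 2. Of these, 10 groups carry the name of a compound, and the other is labelled NC and was used as the reference. Neither dose nor exposure time is given for any group, the composition of NC is not given, and nothing says whether the libraries of a group came from separate cultures, so p-values measure only the spread between libraries. Bromosporine blocks bromodomains, which read acetylated lysine, and Valproate inhibits histone deacetylases. CPTH2 and Garcinol are inhibitors of histone acetyltransferases. Chaetocin and UNC0379 inhibit histone lysine methyltransferases, MS023 inhibits arginine methyltransferases, and IOX1 inhibits demethylases that use 2-oxoglutarate. DZNep inhibits the hydrolase that clears S-adenosylhomocysteine, a by-product that restrains methyltransferases. The compound labelled OICR is not further described. The comparison asks how these genes differ between each compound and NC.

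Primitive endoderm is the layer of the blastocyst that lines the cavity and later forms the visceral and parietal endoderm of the yolk sac. In the inner cell mass, FGF signalling raises GATA6 and lowers NANOG in the cells that take this fate, and GATA6 then acts with GATA4 and the SOX factors SOX17 and SOX7. PDGFRA, a receptor tyrosine kinase, marks these cells, DAB2 is an endocytic adaptor, and CUBN and AMN together form the cubilin and amnionless receptor with which visceral endoderm takes up proteins. Embryonic stem cell cultures can hold a few cells that express such genes. In bulk RNA, more cells of such a type and more RNA per cell cannot be told apart.

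The 2 members that rose with a compound, Dab2 and Pdgfra, are shown by the 250 bases before their annotated starts, because these are the windows in which promoter motifs could be read for genes that moved in the same direction. The windows come from RefSeq on GRCm38.p6 and are printed 5′ to 3′ on the plus strand. Capitals mark a GATA motif, searched on both strands as AGATAA or AGATAG or TGATAA or TGATAG. Dab2 has a window at chr15:6299539-6299788 and another at chr15:6386498-6386747, and that of Pdgfra is chr5:75152001-75152250. The Pdgfra window ends short of the GENCODE start of the gene at 75152292. The 50 bases after that window were not matched in a GENCODE transcript of Pdgfra.
Dab2, first start: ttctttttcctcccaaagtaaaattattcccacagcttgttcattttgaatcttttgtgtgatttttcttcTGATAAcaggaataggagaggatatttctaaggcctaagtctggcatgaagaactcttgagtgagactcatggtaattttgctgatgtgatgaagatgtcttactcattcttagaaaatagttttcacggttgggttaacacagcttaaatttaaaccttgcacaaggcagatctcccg
Dab2, other start: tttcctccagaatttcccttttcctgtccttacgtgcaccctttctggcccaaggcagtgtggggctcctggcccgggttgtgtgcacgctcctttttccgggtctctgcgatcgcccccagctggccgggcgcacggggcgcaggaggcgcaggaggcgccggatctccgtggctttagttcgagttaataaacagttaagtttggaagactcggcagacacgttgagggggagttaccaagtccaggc
Pdgfra: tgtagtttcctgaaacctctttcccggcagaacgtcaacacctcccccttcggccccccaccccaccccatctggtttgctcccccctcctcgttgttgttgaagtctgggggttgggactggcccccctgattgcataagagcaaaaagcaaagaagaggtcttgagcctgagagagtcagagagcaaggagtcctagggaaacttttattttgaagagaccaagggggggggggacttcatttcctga
The first Dab2 window held 1 GATA motif, and the other Dab2 window and that of Pdgfra held 0. Of all 32817 windows of this length, 26.6% held at least 1 such motif. The windows also differed in base composition. The first Dab2 window had 36.8% G or C and 2 CpG dinucleotides, the other Dab2 window had 60% and 17, and the Pdgfra window had 54.4% and 4. The median over all windows was 52.4% and 6. In the windows of Amn and Cubn, 0 motifs were found. A match is a description of letters and not a binding site.

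In the GRCm38 (mm10) assembly with GENCODE M21 annotation, the 7 measured genes are all annotated as protein-coding. Gata4 lies at chr14:63198922-63271692 on the minus strand, Gata6 at chr18:11052064-11085635 on the plus strand and Sox17 at chr1:4490931-4497354 on the minus strand. Dab2 lies at chr15:6299788-6440712 and Pdgfra at chr5:75152292-75198215, both on the plus strand. Amn lies at chr12:111271095-111276426 on the plus strand and Cubn at chr2:13276338-13491813 on the minus strand. The exons of Gata6, Sox17, Dab2, Pdgfra and Cubn overlap an annotated transcript on the opposite strand, and whether reads were counted by strand is not stated. Of the 31-base stretches in the longest Sox17 transcript, 24.1% are also found in transcripts of another gene, and the Sox17 values are therefore uncertain. For the other 6 genes this share was 0% to 2.8%. Among the genes of other lists named below, it was 36% for Krt8, 22.7% for Pou5f1, 14.1% for Zfp42 and 11% for Nanog. Their values carry the same limit.

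All libraries carried embryonic stem cell markers at high levels. Pou5f1 ranged from 25663 to 39262 and Nanog, which opposes the endoderm fate, from 31970 to 123367 normalized read counts. Values were full-quantile normalized by the authors, so that the median was 409 and the largest value 221616 in every library, and sequencing depth is not known. The primitive endoderm genes lay below this median. Gata4 ranged from 35 to 165 over the 22 libraries (median 120.5), Gata6 from 12 to 367 (98.5), Sox17 from 13 to 92 (33.5), Dab2 from 12 to 146 (35), Pdgfra from 15 to 120 (28), Amn from 1 to 55 (9) and Cubn from 0 to 90 (22.5). Per kilobase of the longest transcript, in the 2 NC libraries, the GATA factors stood above the rest. Gata4 had 45.9 and 45.3 and Gata6 50.7 and 30.4 normalized read counts per kilobase, and their ranges overlapped. Sox17 followed with 13.3 and 9.25, Dab2 with 8.79 and 9.87 and Amn with 5.29 and 9.99, 3 genes whose neighbours in this order overlapped. Pdgfra had 3.22 and 2.78, and Cubn had 1.42 and 2.4, below Pdgfra in both libraries.

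**Figure D1:**
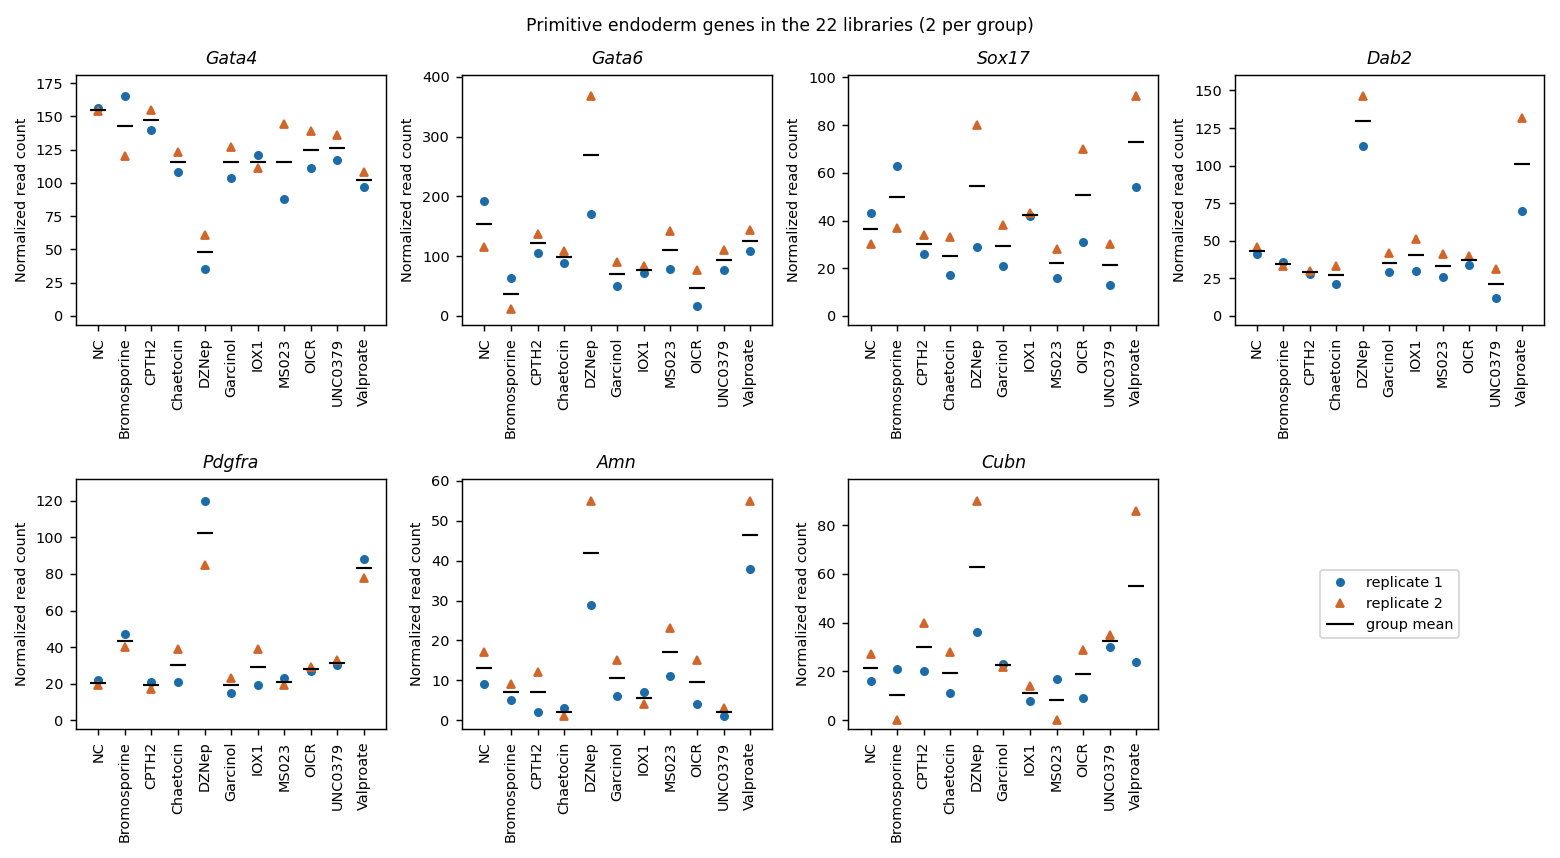
Normalized read count (vertical axis, linear, with its own scale for each gene) of the 7 measured primitive endoderm genes in the 11 groups (horizontal axis). Circles and triangles are the 2 libraries of a group and bars are group means. Gata4 is lowest in the DZNep libraries (35 and 61), and Dab2, Pdgfra and Amn are highest in the DZNep and Valproate libraries.

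Among the primitive endoderm genes, changes past the test were found with DZNep and Valproate only, as fitted with limma over all 22 libraries (adjusted p under 0.05 and a fold change over 2). With DZNep, Dab2 and Pdgfra rose and Gata4 fell. With Valproate, Pdgfra rose. These are 4 calls among the 70 pairs of gene and compound, and none of the 4 held in a fit restricted to that compound and NC (adjusted p from 0.0891 to 0.143). With DZNep 3 of the 7 genes were called, against 11.4% of all genes tested, and with Valproate 1 of 7, against 5.28%. Every comparison used the same 2 NC libraries. With the other 8 compounds 0 of the 7 genes were called by limma, and 6 of the 56 pairs (10.7%) had an unadjusted p under 0.05, near the 9.05% over all genes with these compounds. The share of all genes called was 3.34% with Bromosporine, 0.973% with MS023, 0.388% with OICR, 0.116% with IOX1, 0.0174% with Chaetocin, 0.00579% with CPTH2, 0.00579% with Garcinol and 0% with UNC0379, so that for most of these compounds few genes of any kind were called.

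**Figure D2:**
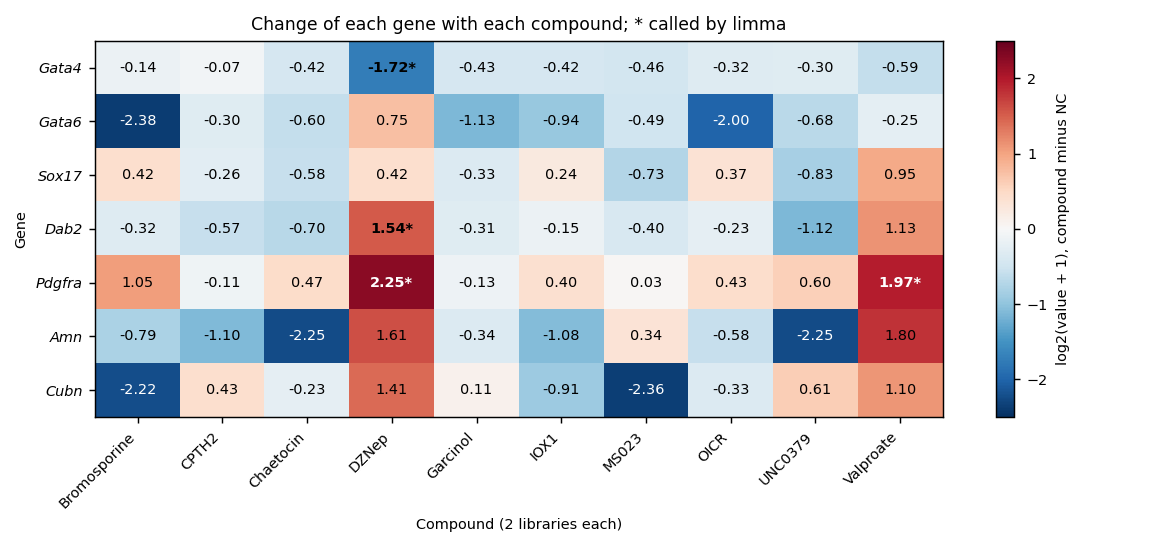
Change of each gene (vertical axis) with each compound (horizontal axis), as the difference of group means of log2(value + 1) between 2 compound libraries and 2 NC libraries, with red above and blue below NC. Asterisks mark the 4 calls: Gata4, Dab2 and Pdgfra with DZNep and Pdgfra with Valproate.

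Gata4, a zinc finger transcription factor of the primitive endoderm network, was the only one of the 7 genes to fall past the test. Its normalized read counts were 156 and 154 in NC and 35 and 61 with DZNep. With Valproate they were 97 and 108. Both DZNep libraries lay below all other libraries. The remaining values were 165 and 120 with Bromosporine, 108 and 123 with Chaetocin, 140 and 155 with CPTH2 and 104 and 127 with Garcinol. They were 121 and 111 with IOX1, 88 and 144 with MS023, 111 and 139 with OICR and 117 and 136 with UNC0379. Against NC, Gata4 fell by 1.72 on the log2(value + 1) scale with DZNep (SE 0.28, adjusted p = 0.000749, limma). The difference was -2.12 between the libraries numbered 1 and -1.32 between those numbered 2. With the other 9 compounds the differences lay from -0.59 with Valproate (adjusted p = 0.22) to -0.07 with CPTH2, all below NC and none called.

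Gata6, the GATA factor that comes first in the lineage, was not called with any compound. Its normalized read counts were 192 and 115 in NC, 170 and 367 with DZNep and 108 and 144 with Valproate. They were 63 and 12 with Bromosporine and 17 and 77 with OICR. The DZNep libraries overlapped NC, and the Bromosporine and OICR libraries lay below it. In the other groups the values were 89 and 108 with Chaetocin, 106 and 137 with CPTH2, 50 and 91 with Garcinol, 71 and 83 with IOX1, 78 and 142 with MS023 and 77 and 111 with UNC0379. Both libraries of Chaetocin, Garcinol, IOX1 and UNC0379 thus also lay below both NC libraries. The log2 difference from NC was 0.75 with DZNep (95% interval -0.83 to 2.32, adjusted p = 0.496, limma), -2.38 with Bromosporine (SE 0.73, adjusted p = 0.0804) and -2.00 with OICR (adjusted p = 0.306). Over 12 alternative fits the Bromosporine difference ran from -3.52, without Bromosporine replicate 1, to -1.23. The largest of these rests on 1 Bromosporine library, at 12.

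The DZNep libraries stood apart in the balance of the GATA factors. The ratio of Gata6 to Gata4 normalized read counts within a library was 4.86 and 6.02 with DZNep. In the other 20 libraries it ran from 0.1 to 1.33 with a median of 0.752, and the NC libraries had 1.23 and 0.747. The lowest ratios were in Bromosporine replicate 2 (0.1) and OICR replicate 1 (0.153). This ratio was looked at after the values had been seen and is a description without a test. Over the 22 libraries the correlation of Gata4 with Gata6, on the log2(value + 1) scale after the mean of each replicate number was subtracted, was r = -0.27, and the libraries share their groups.

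**Figure D3:**
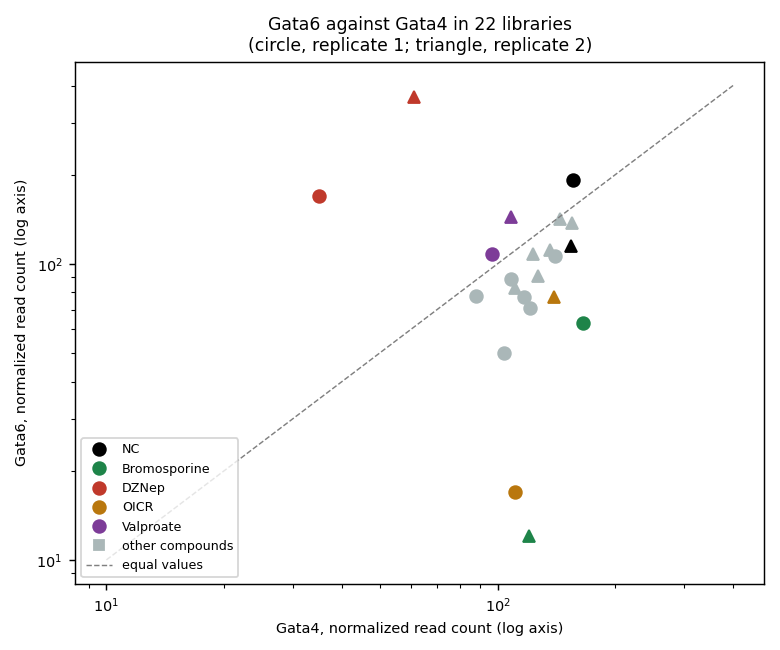
Gata6 (vertical axis) against Gata4 (horizontal axis) in each of the 22 libraries, as normalized read counts on log axes, with a dashed line where the values are equal. The 2 DZNep libraries stand apart at low Gata4 (35 and 61) and at Gata6 of 170 and 367, and the Bromosporine and OICR libraries lie at low Gata6.

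Sox17, an SRY-box transcription factor of endoderm, had normalized read counts of 43 and 30 in NC, 29 and 80 with DZNep and 54 and 92 with Valproate. Bromosporine gave 63 and 37, and OICR gave 31 and 70. The DZNep libraries lay on either side of the NC libraries, and both Valproate libraries lay above them. In the remaining 6 groups it lay between 13 and 43. No compound passed the test. The log2 difference was 0.42 with DZNep (95% interval -0.87 to 1.70, adjusted p = 0.659, limma) and 0.95 with Valproate (-0.33 to 2.24, adjusted p = 0.348).

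Pdgfra, the platelet-derived growth factor receptor alpha, was the only one of the genes to be called with 2 compounds. Its normalized read counts were 22 and 19 in NC, 120 and 85 with DZNep and 88 and 78 with Valproate. With Bromosporine they were 47 and 40. The DZNep and Valproate libraries overlapped each other and lay above all others. The other groups had 21 and 39 with Chaetocin, 21 and 17 with CPTH2, 15 and 23 with Garcinol, 19 and 39 with IOX1, 23 and 19 with MS023, 27 and 29 with OICR and 30 and 33 with UNC0379. The mean was 5-fold that of NC with DZNep (log2 change 2.25, SE 0.38, adjusted p = 0.000945, limma) and 4.05-fold with Valproate (1.97, SE 0.38, adjusted p = 0.00546). The Bromosporine difference was 1.05 and was not called (adjusted p = 0.138), although both of its libraries lay above both NC libraries.

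Pdgfra is also expressed by fibroblasts, and some of their markers moved with it. Of 8 fibroblast and feeder markers 7 were tested, and Dcn was at 0 in all 22 libraries. With DZNep 2 of 7 rose, where 11.4% of all genes tested were called either way. Col1a1, the main chain of fibrillar collagen I, went from 24 and 24 in NC to 327 and 228 (log2 change 3.45, adjusted p = 1.79e-05), and Thy1, a surface glycoprotein, from 12 and 11 to 66 and 64 (2.4, adjusted p = 0.00115). With Valproate 2 of 7 rose, where 5.28% of all genes tested were called either way. Thy1 was at 358 and 303 (4.73, adjusted p = 3.01e-05), and Lum, a collagen-binding proteoglycan, at 197 and 331 against a listed 0 in both NC libraries. The Lum call was lost when any 1 of the 4 libraries was left out (adjusted p from 0.0568 to 0.0671). Lum was also listed at 0 in both DZNep libraries. With CPTH2 it was at 346 in replicate 1 and at a listed 0 in replicate 2. Col1a1 was at 14 and 25 with Valproate. With Bromosporine Col1a1 fell to 7 and 6 (-1.74, adjusted p = 0.00931), a call lost without Bromosporine replicate 2 (adjusted p = 0.0514) or NC replicate 1 (0.0717). The summed level of the list was 745 to 1476 in NC, 1669 to 1938 with DZNep, 1476 to 1613 with Valproate and 657 to 740 with Bromosporine. This sum rests largely on Postn, which was at 474 and 559 in NC, 677 and 819 with DZNep, 658 and 0 with Valproate and 0 in both Bromosporine libraries, and on Col3a1, which was at 4 and 743 in NC and ran from 2 to 851 over all libraries. Pdgfrb, the beta receptor, lay the other way, at 217 and 108 in NC, 57 and 64 with DZNep and 59 and 54 with Valproate, and was not called. The part of such cells in the Pdgfra result was not tested.

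Dab2, the endocytic adaptor, had normalized read counts of 41 and 46 in NC, 113 and 146 with DZNep and 70 and 132 with Valproate. In the other 8 groups every library lay between 12 and 51. Both libraries of DZNep and of Valproate were thus above every other library. The values elsewhere were 36 and 33 with Bromosporine, 21 and 33 with Chaetocin, 28 and 30 with CPTH2, 29 and 42 with Garcinol, 30 and 51 with IOX1, 26 and 41 with MS023, 34 and 40 with OICR and 12 and 31 with UNC0379. With DZNep the mean was 2.98-fold that of NC (log2 change 1.54, SE 0.45, adjusted p = 0.0238, limma). That call did not hold when any 1 of the 4 libraries of DZNep and NC was left out, with log2 changes of 1.36 to 1.73 and adjusted p from 0.0502 to 0.128. With Valproate the log2 difference was 1.13 (95% interval 0.16 to 2.10) and was not called (adjusted p = 0.138).

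Neither of the receptor genes, Amn and Cubn, was called with any compound. Amn, which anchors cubilin at the membrane, had normalized read counts of 9 and 17 in NC, 29 and 55 with DZNep and 38 and 55 with Valproate. In the other 8 groups every library lay between 1 and 23. The log2 difference was 1.61 with DZNep (95% interval -0.15 to 3.38, adjusted p = 0.172, limma) and 1.80 with Valproate (0.04 to 3.56, adjusted p = 0.197). Cubn, the ligand-binding cubilin, had 16 and 27 in NC, 36 and 90 with DZNep and 24 and 86 with Valproate. It was listed at 0 in Bromosporine replicate 2 and in MS023 replicate 2, where the other library of the group had 21 and 17. The log2 difference was 1.41 with DZNep (-1.54 to 4.37, adjusted p = 0.492) and 1.10 with Valproate (-1.86 to 4.05, adjusted p = 0.679). The intervals against NC are wide for both genes.

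A test over all 11 groups, which does not rest on NC alone, found a difference in 4 of the 7 genes, against 29.7% of all genes tested. These were Gata4 (adjusted p = 0.0156), Dab2 (0.0109), Pdgfra (0.00252) and Amn (0.0168) in the moderated F-test of limma. Gata6 (0.0942), Sox17 (0.275) and Cubn (0.344) did not pass. As a group, the median log2 difference of the 7 genes was 1.41 with DZNep, where that of all genes tested was -0.04, and 1.10 with Valproate, where it was -0.02. With DZNep 6 of the 7 differences were above 0, Gata4 being the exception, and with Valproate 5 of 7. Over the 8 trophoblast markers tested the median was 1.21 with DZNep and 0.92 with Valproate, with 6 above 0 with either compound. Over the 7 fibroblast and feeder markers tested it was 0.88 and 0.44. For the 6 tested markers of primitive streak and definitive endoderm it was -0.27 and 0.38. A median above 0 was thus not particular to the primitive endoderm genes. The summed level of the 7 genes was 408 to 479 in NC, 532 to 884 with DZNep and 479 to 695 with Valproate.

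The replicate number itself moved with these genes. Across the 11 groups, 0 of the 7 genes differed past the test between replicates 2 and 1, against 4.04% of all genes, because no fold change reached 2. An adjusted p under 0.05 was still reached by Dab2 (log2 difference 0.50, adjusted p = 0.00668, limma, higher in replicate 2 in 10 of 11 groups), Sox17 (0.56, adjusted p = 0.034, 9 of 11) and Amn (0.76, adjusted p = 0.0398, 9 of 11). In Gata4, Gata6, Pdgfra and Cubn the difference lay between -0.01 and 0.34. What the number stands for is not stated.

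DZNep and Valproate were then set against each other, a contrast chosen after the values had been seen. Gata4 was the only one of the 7 genes to pass, against 10.8% of all genes tested. It had already been called lower against NC with the same DZNep libraries, and is therefore no separate test here. It was lower with DZNep by a log2 difference of -1.13 (SE 0.28, adjusted p = 0.0116, limma), and that call did not hold without DZNep replicate 1 (-0.74, adjusted p = 0.101) or without Valproate replicate 2 (-1.05, adjusted p = 0.0553). For Pdgfra the difference was 0.28 (95% interval -0.54 to 1.10), for Dab2 0.41 (-0.56 to 1.38) and for Amn -0.19 (-1.95 to 1.57). For Gata6 it was 1.00 (-0.57 to 2.57), for Sox17 -0.54 (-1.82 to 0.75) and for Cubn 0.32 (-2.64 to 3.27). None of these 6 passed, and the intervals leave room for changes of 2-fold or more.

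The rest of the extraembryonic endoderm programme was read from 26 other genes, of which 22 were in the table and tested. With DZNep 3 rose and 2 fell, with Valproate 1 rose and with Bromosporine 1 fell. Of all genes tested, 11.4% were called either way with DZNep, 5.28% with Valproate and 3.34% with Bromosporine. With the other 7 compounds 0 were called by limma, and 14 of the 154 pairs (9.09%) had an unadjusted p under 0.05, near the 7.63% over all genes. The median log2 difference of the 22 genes was 0.10 with DZNep, -0.08 with Valproate and -0.58 with Bromosporine, beside -0.04, -0.02 and 0.01 over all genes tested. The basement membrane genes of parietal endoderm, among them Lama1, Lamb1, Lamc1, Col4a1, Col4a2, Nid1 and Nid2, were not called with any compound. Some still lay apart from NC with DZNep. Col4a1 was at 582 and 595 against 257 and 265, and Lamb1 at 3131 and 3264 against 2081 and 1690. Lamc1 was lower, at 33603 and 31970 against 53841 and 49312, as was Nid2, at 11304 and 8206 against 20208 and 14626. The Lamb1 and Lamc1 differences were not particular to DZNep. Lamb1 was at 3502 and 2835 with Valproate. Lamc1 also lay below both NC libraries with other compounds, among them MS023 (28536 and 33603) and IOX1 (29399 and 35221). In the moderated F-test over 11 groups Lamb1 (adjusted p = 0.00621) and Lamc1 (0.0168) passed, and the other named genes did not.

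Among the visceral endoderm genes of this list, Hnf4a rose and Rbp4 fell with DZNep. Hnf4a, a nuclear receptor, went from 9 and 12 normalized read counts in NC to 155 and 97 with DZNep (log2 change 3.44, adjusted p = 0.0017, limma), and was at 47 and 41 with Valproate. Rbp4, the retinol carrier, went from 42 and 38 to 3 and 8 with DZNep (-2.77, adjusted p = 0.0046).

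On the parietal side, Snai1 and Plat rose. Snai1, a repressor that accompanies the change to migratory cells, went from 20 and 28 in NC to 329 and 269 with DZNep (3.60, adjusted p = 0.00527, limma), and was at 14 and 23 with Valproate. It also lay above both NC libraries with MS023 (102 and 104), OICR (66 and 75) and UNC0379 (48 and 57), where it was not called. With Bromosporine it lay below them (13 and 14). Plat, the tissue plasminogen activator, went from 21 and 25 to 126 and 87 with DZNep (2.14, adjusted p = 0.00252) and to 165 and 84 with Valproate (2.31, adjusted p = 0.00393). Plat was also at 69 and 87 with MS023, where it was not called. Between DZNep and Valproate, in the contrast chosen after the values had been seen, Snai1 differed by 3.98 (adjusted p = 0.00307), and Hnf4a by 1.46, which did not pass (95% interval 0.10 to 2.82, adjusted p = 0.117). Both genes had already been called higher with the same DZNep libraries, so these differences are no separate test.

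**Figure D4:**
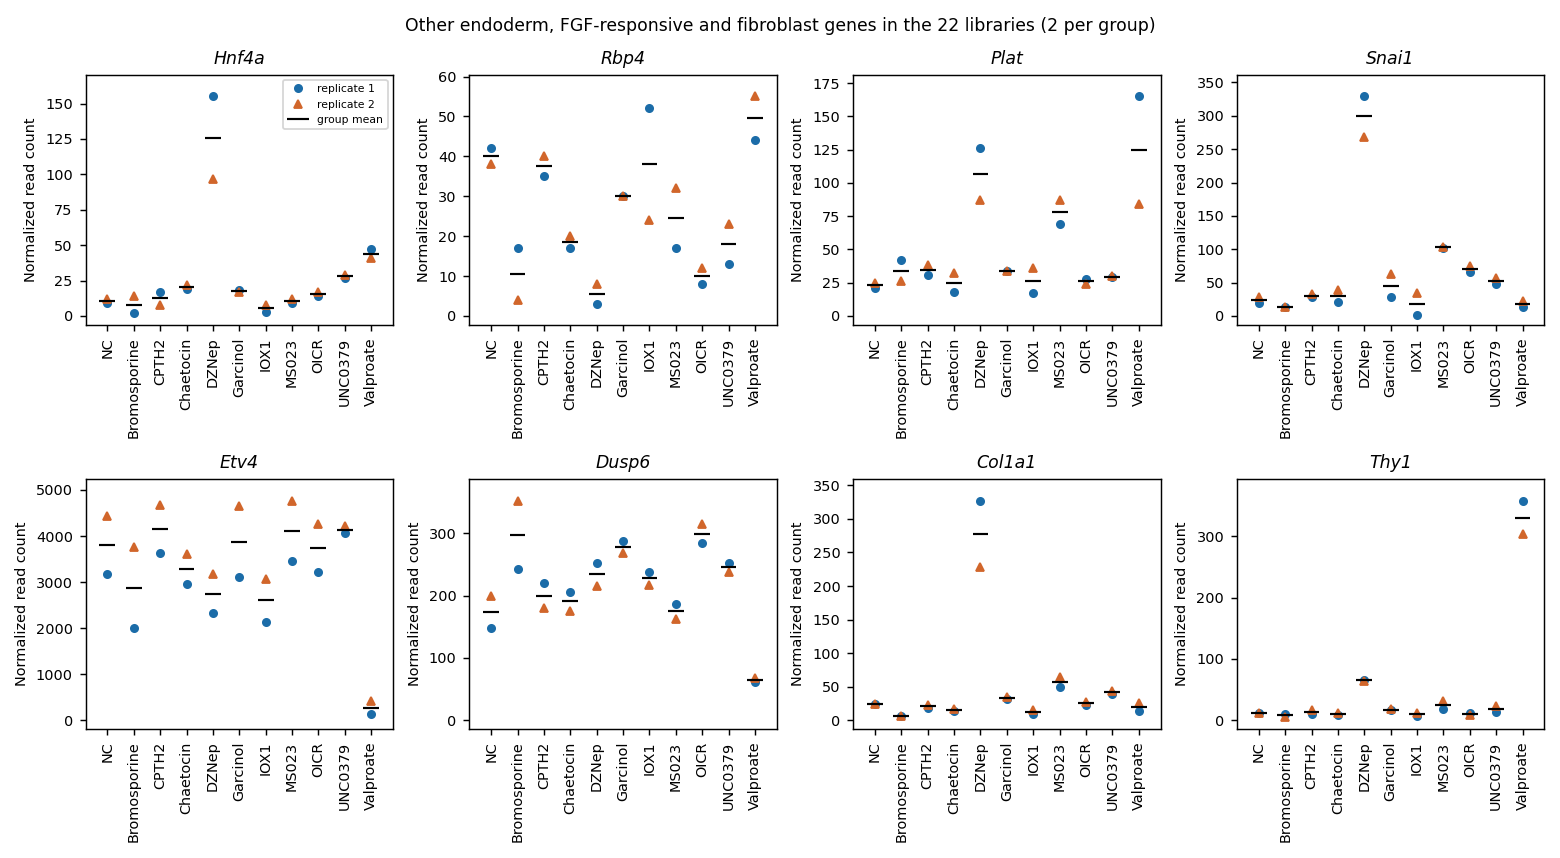
Normalized read count (vertical axis, linear, with its own scale for each gene) of Hnf4a, Rbp4, Plat, Snai1, Etv4, Dusp6, Col1a1 and Thy1 in the 11 groups (horizontal axis), with the 2 libraries as a circle and a triangle and the mean as a bar. Hnf4a (155 and 97), Snai1 and Col1a1 are highest with DZNep, Plat is high with DZNep and Valproate, Thy1 is highest with Valproate (358 and 303), and Etv4 (134 and 408) and Dusp6 (61 and 67) are lowest with Valproate.

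Among genes of the FGF input to the lineage, 3 of 12, all tested, fell with Valproate, where 5.28% of all genes tested were called either way. With the other 9 compounds 0 were called by limma, and 14 of the 108 pairs of gene and compound (13%) had an unadjusted p under 0.05, near the 12% over all genes. Of these pairs 6 were with DZNep, where 35.4% of all genes had such a p. Etv4, a transcription factor induced by FGF, went from 3169 and 4442 normalized read counts to 134 and 408 (log2 change -4.00, adjusted p = 0.000149, limma). Dusp6, a phosphatase of ERK, went from 148 and 200 to 61 and 67 (-1.41, adjusted p = 0.000862), and Spry4, an inhibitor of receptor signalling, from 26 and 32 to 4 and 2 (-2.95, adjusted p = 0.00107). The ligand Fgf4 and the receptors Fgfr1 and Fgfr2 were not called with any compound. Etv4, Dusp6 and Spry4 had already been called lower with the same Valproate libraries that enter the contrast of DZNep with Valproate. Their direction there was close to fixed, and it is no separate test. All 3 were higher with DZNep, by 3.53 for Etv4 (adjusted p = 0.000119, limma), 1.85 for Dusp6 (4.89e-05) and 2.96 for Spry4 (0.000414). Their DZNep values were 2323 and 3170 for Etv4, 252 and 216 for Dusp6 and 47 and 18 for Spry4.

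Nanog and Pou5f1 were not called with any compound. The largest Nanog difference was with DZNep, from 44793 and 59405 in NC to 92251 and 123367 (log2 difference 1.05, adjusted p = 0.0574, limma). It was called after median-ratio rescaling (adjusted p = 0.0385) and against the mean of the other 10 groups (0.00595). Of the 10 embryonic stem cell markers, Utf1, a chromatin-bound factor of undifferentiated cells, rose with DZNep (1.91), Bromosporine (1.55), OICR (1.39) and Valproate (1.32), and Zfp42, also known as Rex1, rose with DZNep (1.15). The call of Utf1 with OICR was lost without either OICR library or NC replicate 1 (adjusted p from 0.052 to 0.18), and that of Zfp42 without DZNep replicate 1 (0.87) or NC replicate 1 (0.98), where the fold change was under 2. Markers of other lineages moved with the same compounds. Of 8 trophoblast markers tested, Gata3, another GATA factor, went from a listed 0 and 9 in NC to 44 and 54 with DZNep (3.98, adjusted p = 0.0147), and Krt8, a keratin, from 140 and 411 to 881 and 504 (1.47, adjusted p = 0.0213). Krt18, also a keratin, lay the other way, at 53 and 46 in NC and 21 and 16 with DZNep, and was not called. With DZNep 6 of the 8 differences were above 0. The Krt8 call was lost without NC replicate 1 (0.70, adjusted p = 0.269) or DZNep replicate 1 (1.07, 0.158). Hand1, with NC values of 9 and 4, was listed at 0 with Bromosporine in either library and called as lower (adjusted p = 0.0411), a call lost when any 1 library was left out (adjusted p from 0.0703 to 0.283) or with a pseudocount of 10 (0.213). The Gata3 call was lost without NC replicate 1 (2.31, adjusted p = 0.196) or either DZNep library (0.0503 and 0.059). Of 6 tested markers of primitive streak and definitive endoderm, Eomes, a T-box factor, rose with Bromosporine (1.33, adjusted p = 0.0323) and DZNep (1.10, adjusted p = 0.027). The Bromosporine call was lost when any 1 of its 4 libraries was left out (adjusted p from 0.0956 to 0.175), and the DZNep call without DZNep replicate 1 (0.68, adjusted p = 0.221) or either NC library (0.0993 and 0.105). The part of trophoblast or streak cells in the values of the primitive endoderm genes was not tested.

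Genes with the most similar pattern were sought for the 5 members at 10 or more in all libraries, by Pearson correlation of log2(value + 1) over the 22 libraries after the mean of each replicate number was subtracted, among the 14450 genes that met the same minimum. For Gata4 they were Fuk (r = 0.942), Spg11 (0.927) and Dock6 (0.926), and for Gata6 Oaf (0.855), Aqp3 (0.847) and Eva1c (0.836). For Sox17 they were Basp1 (0.873), Chst7 (0.855) and Wrnip1 (0.854). For Dab2 they were Gmpr (0.925), Cdh20 (0.915) and Fam174b (0.904), and for Pdgfra Kctd10 (0.937), Pgm2l1 (0.936) and Akap1 (0.933). No member was among the closest genes of another. Between members the highest correlations were those of Dab2 with Amn (0.796) and Dab2 with Pdgfra (0.758), and the lowest those of Gata4 with Pdgfra (-0.68) and Gata4 with Dab2 (-0.65). The 22 points share their groups and 1 normalization, so these values describe the pattern and carry no p.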

How the data were processed

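RNA was measured in 22 libraries of E14 cells, 2 for each of 10 compounds and NC, grouped by the treatment labels and titles. Per the labels, mRNA was enriched with oligo-dT from total RNA. Per the submitters' processing notes, bcl2fastq, Bowtie2 2.2.5 and RSEM were used with mm10. The methods of the study name EDASeq for normalization but none of the compounds. The deposited values are scores, normalized counts that the authors rounded to whole numbers, so no count test was run. Totals per library (38403767 to 38419709) reflect the normalization and give no depth, interval or detection limit, and a change shared by most genes would be removed. The deposited group means were not used.

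Values were analysed as log2(value + 1), which understates changes of low genes. In limma 3.58.1 (R 4.3.3), 11 group means were fitted to genes with at least 10 in at least 2 libraries, with a variance trend and 11 residual degrees of freedom. P-values were two-sided and adjusted by Benjamini-Hochberg over the genes of a contrast. A call needed an adjusted p under 0.05 and a fold change over 2. The fit was tested on simulated data. Members and gene lists were chosen with earlier results of these data known. All members were named, as were called genes of the other lists (up to 3 rising and 3 falling per compound), Nanog and Pou5f1. A gene that this rule picked is counted within its list but not reported here. Lists of other cell types were matrix and parietal endoderm, visceral endoderm, FGF input, embryonic stem cell, trophoblast, primitive streak and definitive endoderm, and fibroblast and feeder. Gene positions came from GENCODE M21. Of the measured members, 4 had a promoter window that was read. Sequences were read with Python 3.11.15 and numpy 2.4.6, and plots were drawn with matplotlib 3.10.9. The alternatives were another pseudocount, no filter, another rescaling, reference, adjustment or variance model, a replicate block, fewer libraries and each library left out.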

Additional observations from a re-analysis of the deposited data

How the results depend on the processing

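No difference of a primitive endoderm gene from NC changed sign while called. Of the 4 calls, 4 stayed with a pseudocount of 10, no filter, median-ratio rescaling and no variance trend. With p-values adjusted over all 10 contrasts, 3 were made and Dab2 with DZNep was lost (adjusted p = 0.0966). When only the compound and NC libraries were fitted, DZNep and Valproate called 0 primitive endoderm genes each (adjusted p = 0.125 for Gata4, 0.0891 and 0.143 for Pdgfra), and DZNep, Valproate and Bromosporine called 0 of the 22 other extraembryonic endoderm genes. That fit has fewer libraries and called 97 genes of all kinds with DZNep in place of 1970. With the mean of the other 10 groups as reference, 5 primitive endoderm genes were called with DZNep, adding Gata6 (1.62) and Amn (2.24), 3 with Valproate, adding Dab2 (1.35) and Amn (2.45), and 1 with Bromosporine, Gata6 (-1.81). The other endoderm genes called were then 4 with Valproate and 2 with Bromosporine. Other counts of these moved with a pseudocount of 10 (2 with Valproate, 2 with Bromosporine, 1 with MS023), median-ratio rescaling (2 with Valproate), adjustment over all contrasts (1 with MS023) and no variance trend (2 with Bromosporine, 1 with MS023).

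With each library left out in turn, the primitive endoderm genes called numbered 2 with DZNep in each case (3 with all libraries), stayed at 1 with Valproate and ranged from 0 to 1 with Bromosporine. The other endoderm genes called ranged from 0 to 1 with Bromosporine and with IOX1 and from 1 to 2 with Valproate. The Gata4 difference between DZNep and Valproate was -0.99 with a pseudocount of 10 and lost its call.

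The replicate numbers could not be shown to pair the libraries, since there are only 2 numbers and the labels do not say what they mark. Differences of replicate 2 from replicate 1 correlated between groups at 0.0535 to 0.298 (median 0.196, 55 pairs of groups). With the replicate block, 1 primitive endoderm gene was called with Bromosporine (Gata6, adjusted p = 0.0377) and 2 with Valproate (Dab2 added, adjusted p = 0.0177), and 9, 4, 3 and 2 of the other endoderm genes with DZNep, Valproate, Bromosporine and MS023. Depth is unknown, and Amn and Cubn lie near the low end of the table, which limits what their values can show.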
